A study of Mus musculus with 12 samples.

Results

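The 40 genes described here are the Wnt ligands, receptors, secreted inhibitors and nuclear factors or targets on a mouse expression array. They are listed by gene name, with no measured value in the rule: 15 ligands (Wnt1 to Wnt16), 12 receptors (Fzd1 to Fzd10, Lrp5 and Lrp6), 9 secreted inhibitors (Dkk1 to Dkk4, Sfrp1, Sfrp2, Sfrp4, Sfrp5 and Wif1) and 4 targets or factors (Lef1, Tcf7, Axin2 and Ctnnb1). All 40 had a probe by accession (49 probes), and 38 were among the 25085 features tested. Wnt2b was not well above background on any array, and Ctnnb1 was left out because its spot was marked as an outlier on 1 array.

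The 12 arrays carry RNA from wt and Eng+/- samples, the latter named as heterozygous for endoglin, a co-receptor of TGF-beta and BMP ligands, at day 50 or 90, with no named treatment, with clp or with tpa. There was 1 array for each of the 12 combinations. What the days count, what clp and tpa stand for, the kind of Eng allele and how many animals or cultures stand behind an array are not given in the sources used here, although the series title concerns the hair follicle cycle. Where no treatment is named, the titles of both wt samples include the term pool. Each sample was labelled with Cy5 and hybridised against a Cy3-labelled pool of all conditions, so every level below is a log2 ratio of sample to pool, where 1 unit is a 2-fold difference. The sources conflict here, since the series' design text puts wild-type RNA in Cy3 and speaks of dye swaps, whereas the labels of all 12 arrays give the pool in Cy3. The array labels were followed, and a swapped array would turn the sign of its ratios. Each treatment level lay on a slide of its own, so slide and treatment cannot be told apart, whereas both genotypes and both days lay on every slide.

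Wnt ligands are secreted lipid-modified proteins that bind Frizzled receptors with the co-receptors Lrp5 or Lrp6. In the canonical branch this stabilises beta-catenin (Ctnnb1), which enters the nucleus and acts with the DNA-binding factors Lef1 and Tcf7. Of the Dkk proteins, Dkk1 is known to block the co-receptors, and Sfrp proteins and Wif1 bind the ligands. In skin, canonical Wnt signalling is known to drive growth of the hair follicle, and Lef1 marks hair matrix cells that form the shaft.

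The labels call the material embryonic stem cells of the E14 line, whereas the arrays held many hair genes. Keratins and other hair shaft or root sheath genes, 22 measured, were well above background on all 12 arrays for 21 of them. Of the stem cell factors, Zfp42 was at background throughout, Pou5f1 exceeded it on 1 array and Sox2 on 7. Other stem cell genes (Nanog, Dppa5a, Utf1, Esrrb and Tdgf1) had a probe above background on all 12. Between 65.67% and 77.68% of spots were above background in Cy5, and the median Cy5 intensity was 166.5 to 573. The Cy3 channel correlated with those of the other arrays at a median of 0.986 on the wt 50 d array without a named treatment and 0.992 to 0.995 on the rest. Endoglin (Eng) itself was lower on the Eng+/- array in 5 of 6 matched pairs (mean log2 ratio -0.50 against 0.26, difference -0.77 ± 0.26 SE, limma adjusted p = 0.331), but 0.63 higher in the tpa 50 d pair. The probe has not been placed against the altered part of the gene, so arrays are named below by their labels. Eng was also higher with clp than without a named treatment (1.5 ± 0.32 SE, limma adjusted p = 0.0308).

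Values for a treatment level are given in the order wt 50 d, Eng+/- 50 d, wt 90 d and Eng+/- 90 d. Treatment differences rest on 4 matched pairs, genotype on 6 pairs and day within a treatment level on 2 pairs, all from 1 limma model with a term for genotype and for each treatment-by-day condition. A gene is said to pass where its Benjamini-Hochberg adjusted p over all 25085 features was below 0.05. P-values and each SE measure the spread that this model leaves between arrays, which may be technical, and n counts the matched pairs. An SE is not the spread of the pair differences. The model fits each treatment-by-day condition, so a change of a treatment difference from 50 d to 90 d is not part of the SE.

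With clp, 5 of 38 members were higher than without a named treatment (13.2%, where 7.77% of all features passed, 4.27% upward and 3.5% downward), and 0 were lower. They were the nuclear factor Lef1, the secreted inhibitor Wif1, the receptor Fzd1 and the ligands Wnt5a and Wnt11, the last 2 best known for beta-catenin-independent signalling. Lef1 differed most, 2.66-fold. The median difference over the 38 members was 0.11, against 0.01 over all features, and 24 of 38 differences were positive. By role, 2 of 14 ligands, 1 of 12 receptors, 1 of 9 inhibitors and 1 of 3 targets or factors passed.

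Promoter sequence is shown for the members that passed in this comparison. Members that passed only for clp against tpa, such as Tcf7 and Fzd10, are not printed. RefSeq promoters on the mouse build GRCm38.p6, from 250 bases before to 50 bases after the annotated start, were at hand for 27 of the 40 genes (35 promoters), among them Lef1, Wif1, Fzd1 and Wnt11 but not Wnt5a. For Lef1 and Wnt11 the first of several annotated starts is printed. Capitals mark GGGCGG, the letters of the GC box, and CTTTGAA or CTTTGAT, letters bound by Lef1 and Tcf factors, each on either strand.
Lef1 promoter, chr3:131110047-131110346: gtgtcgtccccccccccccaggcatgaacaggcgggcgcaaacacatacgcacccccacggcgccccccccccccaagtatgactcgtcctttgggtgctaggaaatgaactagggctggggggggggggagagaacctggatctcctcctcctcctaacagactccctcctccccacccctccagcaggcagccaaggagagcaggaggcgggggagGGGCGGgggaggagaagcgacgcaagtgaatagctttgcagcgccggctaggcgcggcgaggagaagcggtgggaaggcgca
Wif1 promoter, chr10:121033754-121034053: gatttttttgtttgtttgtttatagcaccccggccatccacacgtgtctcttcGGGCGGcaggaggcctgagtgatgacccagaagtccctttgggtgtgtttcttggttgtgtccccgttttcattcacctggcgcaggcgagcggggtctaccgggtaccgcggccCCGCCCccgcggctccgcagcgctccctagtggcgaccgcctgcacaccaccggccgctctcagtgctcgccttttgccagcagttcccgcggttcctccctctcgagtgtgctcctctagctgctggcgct
Fzd1 promoter, chr5:4758167-4758466: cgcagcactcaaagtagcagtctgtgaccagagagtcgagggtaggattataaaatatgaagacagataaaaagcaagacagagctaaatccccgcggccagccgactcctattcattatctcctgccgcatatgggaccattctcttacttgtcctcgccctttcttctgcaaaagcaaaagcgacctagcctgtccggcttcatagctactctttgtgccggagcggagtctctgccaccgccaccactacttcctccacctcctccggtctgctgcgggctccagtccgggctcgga
Wnt11 promoter, chr7:98834862-98835161: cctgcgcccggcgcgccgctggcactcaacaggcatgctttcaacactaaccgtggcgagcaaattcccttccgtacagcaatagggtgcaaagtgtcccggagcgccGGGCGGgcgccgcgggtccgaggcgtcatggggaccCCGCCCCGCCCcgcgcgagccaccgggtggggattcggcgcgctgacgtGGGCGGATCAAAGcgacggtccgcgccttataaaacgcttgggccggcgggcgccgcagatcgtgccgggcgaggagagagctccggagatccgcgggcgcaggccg
The Lef1 promoter lies on the plus strand, holds 18 CG pairs in 67.3% G and C, and has 1 GC box. Wif1, on the plus strand, has 25 CG pairs and 2 GC boxes, of which the second is read on the opposite strand. Fzd1, read from the minus strand, has none of these letters and 16 CG pairs in 54% G and C. Wnt11, on the plus strand, has 45 CG pairs, 4 GC boxes and a match to CTTTGAT, read on the opposite strand, that begins 51 bases before the start. Among all 32851 promoters of this length, 8.65% held CTTTGAA or CTTTGAT, beside 3 of the 35 member promoters (8.57%), and 35.7% held GGGCGG, beside 28 of 35 (80%). The median CG pair count was 7 in all promoters and 25 in those of the members. A match is a run of letters and no measured site, and a few promoters of the same gene overlap.

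Lef1 showed the clearest treatment difference. The clp arrays read 1.35, 0.73, 0.83 and -0.47, and the arrays without a named treatment read -0.30, -0.83, -0.48 and -1.59. On the tpa arrays the levels were -1.45, -1.64, 0.51 and -0.42. Each clp array stood above its matched array without a named treatment, by 1.12 to 1.65, while the groups overlapped because clp Eng+/- 90 d was low. The difference was 1.41 ± 0.19 (SE, n = 4 pairs, limma adjusted p = 0.0147).

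Wif1, which binds Wnt proteins outside the cell, was below the pool on all 12 arrays. It read -0.54, -1.45, -0.77 and -2.15 with clp. The arrays without a named treatment read -1.63, -2.31, -2.66 and -2.85, and those with tpa -3.02, -3.30, -1.53 and -1.44. All 4 clp arrays were above their matched arrays without a named treatment (1.13 ± 0.23 SE, n = 4 pairs, limma adjusted p = 0.0278), with overlap between the groups. Both clp wt arrays were the highest, and both tpa 50 d arrays the lowest, next to Eng+/- 90 d without a named treatment.

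The receptor Fzd1 read 1.63, 1.27, 1.79 and 0.33 on the clp arrays. Without a named treatment it read 0.20, -0.05, 0.46 and 0.29, and with tpa 0.14, -0.44, 0.64 and 0.78. The clp arrays stood far above the rest except Eng+/- 90 d, which exceeded its match by 0.04 (difference 1.03 ± 0.24 SE, n = 4 pairs, limma adjusted p = 0.0379). Wnt5a split in a similar way, with 1.39, 0.92, 1.20 and -0.14 on the clp arrays. Its levels were -0.14, 0.06, 0.21 and -0.24 without a named treatment and -0.01, -0.64, 0.61 and 0.49 with tpa. The difference of clp from no named treatment was 0.87 ± 0.23 (SE, n = 4 pairs, limma adjusted p = 0.0494), with 1 clp array, Eng+/- 90 d, inside the range of the arrays without a named treatment. Wnt11 read 1.16, 1.43, 1.01 and 0.23 with clp, 0.31, 0.16, 0.52 and -0.06 without a named treatment and -0.29, -0.15, 0.59 and 0.53 with tpa. All 4 clp arrays exceeded their matches (0.73 ± 0.19 SE, n = 4 pairs, limma adjusted p = 0.0498), and clp Eng+/- 90 d again lay within the other groups.

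**Figure D1:**
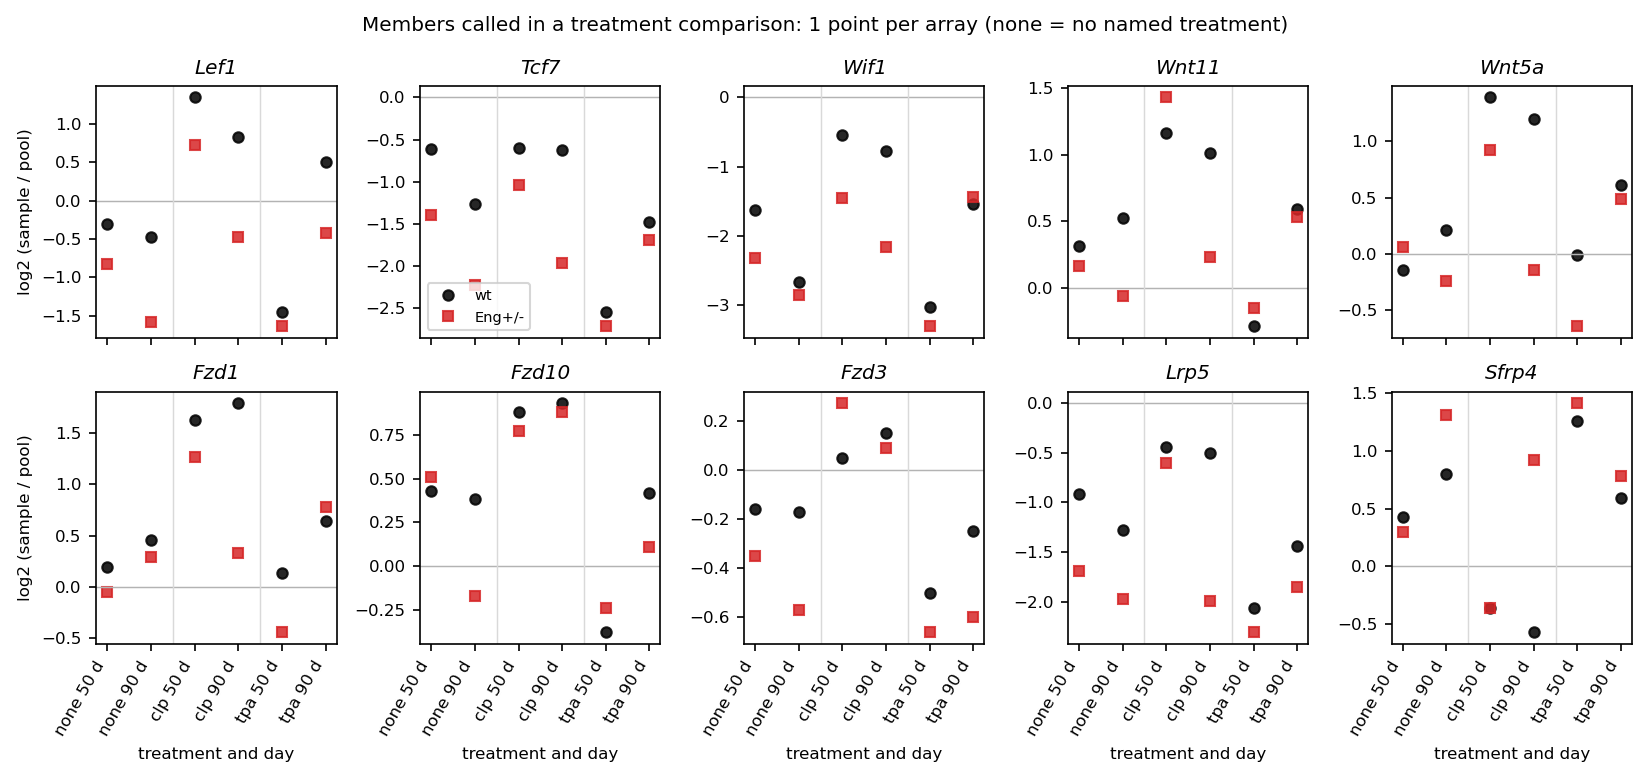
Levels of the 10 members that passed in a treatment comparison, as log2 ratio of sample to pool (vertical axis) by treatment and day (horizontal axis), with 1 point per array, black circles for wt and red squares for Eng+/-. Lef1 reads 1.35, 0.73 and 0.83 on 3 clp arrays and -0.47 on clp Eng+/- 90 d, and Sfrp4 runs the other way, from -0.57 on clp wt 90 d to 1.41 on tpa Eng+/- 50 d.

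Other members differed in level but did not pass. Fzd10, Fzd3 and Wnt16 were the 3 members whose 4 clp arrays all lay above the 4 arrays without a named treatment (5.29% of all features were higher without overlap), with differences of 0.58, 0.45 and 0.31 and limma adjusted p of 0.0563, 0.0728 and 0.0949. The second Wnt16 probe went the other way, by -0.22 ± 0.09, lower with clp in 4 of 4 pairs (limma adjusted p = 0.169 over all probes). The inhibitors Sfrp4 and Sfrp2, which bind Wnt ligands, were lower on the clp array in 4 of 4 pairs, by -0.80 and -0.66, with limma adjusted p of 0.0786 and 0.0941. Lrp6 had a large difference, 1.23 ± 0.37 (SE, n = 4 pairs), with a pair range of -0.33 to 2.31 (limma adjusted p = 0.0725). Its second probe differed by only 0.28 ± 0.17 (limma adjusted p = 0.315 over all probes). Axin2, the feedback target of the canonical branch, differed by -0.15 with an interval of -0.65 to 0.34. Ctnnb1, not tested, read 2.20, 1.87, 2.06 and 0.87 on the clp arrays and 0.81 to 1.42 on the other 7 with a value.

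The count of members for clp depended on single arrays. It was 0 without clp wt 90 d or clp wt 50 d. It was 1 (Lef1) without Eng+/- 50 d, wt 50 d or clp Eng+/- 50 d. Without any 1 tpa array it was 2 (Lef1 and Wif1), and without wt 90 d it was 3. It was 7 without Eng+/- 90 d (6 higher and 1 lower) and 8 without clp Eng+/- 90 d. The count over all features moved as well, from 1948 with all arrays. It was 17 without clp wt 90 d, 3 without clp wt 50 d and 401 to 1060 in the fits with 1 member. It was 765 or 878 without 1 tpa array and 1567 without wt 90 d. Without Eng+/- 90 d it was 4506, and without clp Eng+/- 90 d 1466. The dependence on single arrays was thus not particular to the members. Lef1 was 1.25 (limma adjusted p = 0.0548) without clp wt 90 d and 1.46 (0.0631) without clp wt 50 d. By day, chosen after the data were seen, 3 members passed at 50 d (Fzd1, Lef1 and Wnt11) and 0 at 90 d, where Lef1 differed by 1.22 and Wif1 by 1.30. The share of all features that passed by day is not reported here, so these counts cannot be set against it. With median centring in place of loess the median of all features moved to 0.24 and 88.7% of the calls over all features were upward instead of 54.9%; relative to that median Lef1 was 1.90 higher, Wif1 1.40, Fzd1 1.30, Wnt5a 1.22 and Wnt11 1.07, and Fzd1 no longer passed (limma adjusted p = 0.0798).

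Markers of hair and pigment cells moved with these members. The median log2 ratio of the 22 hair shaft and root sheath genes ran from -1.14 to 0.94 on the clp arrays, -5.58 to 0.49 without a named treatment and -4.92 to 0.02 with tpa. For clp against no named treatment, 3 of those 22 genes passed upward with a median difference of 2.02, as did 3 of 9 melanocyte genes (1.03) and 2 of 6 proliferation genes (0.65). Immune genes were lower, 5 of 7 with a median of -0.99, and their list ran from -1.74 to -0.69 with clp and from 0.46 to 0.79 without a named treatment. Fibroblast and matrix genes were lower too, 3 of 7 with a median of -0.75, and their list ran from -0.94 to -0.39 with clp and from 0.09 to 0.42 without a named treatment. Dermal papilla genes, the mesenchymal cells that signal to the follicle, had a median difference of 0.12, with 2 higher and 1 lower of 8. The part of any of these lists in the Wnt result was not tested. In such bulk RNA, fewer cells of a type and less RNA per cell cannot be told apart.

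**Figure D2:**
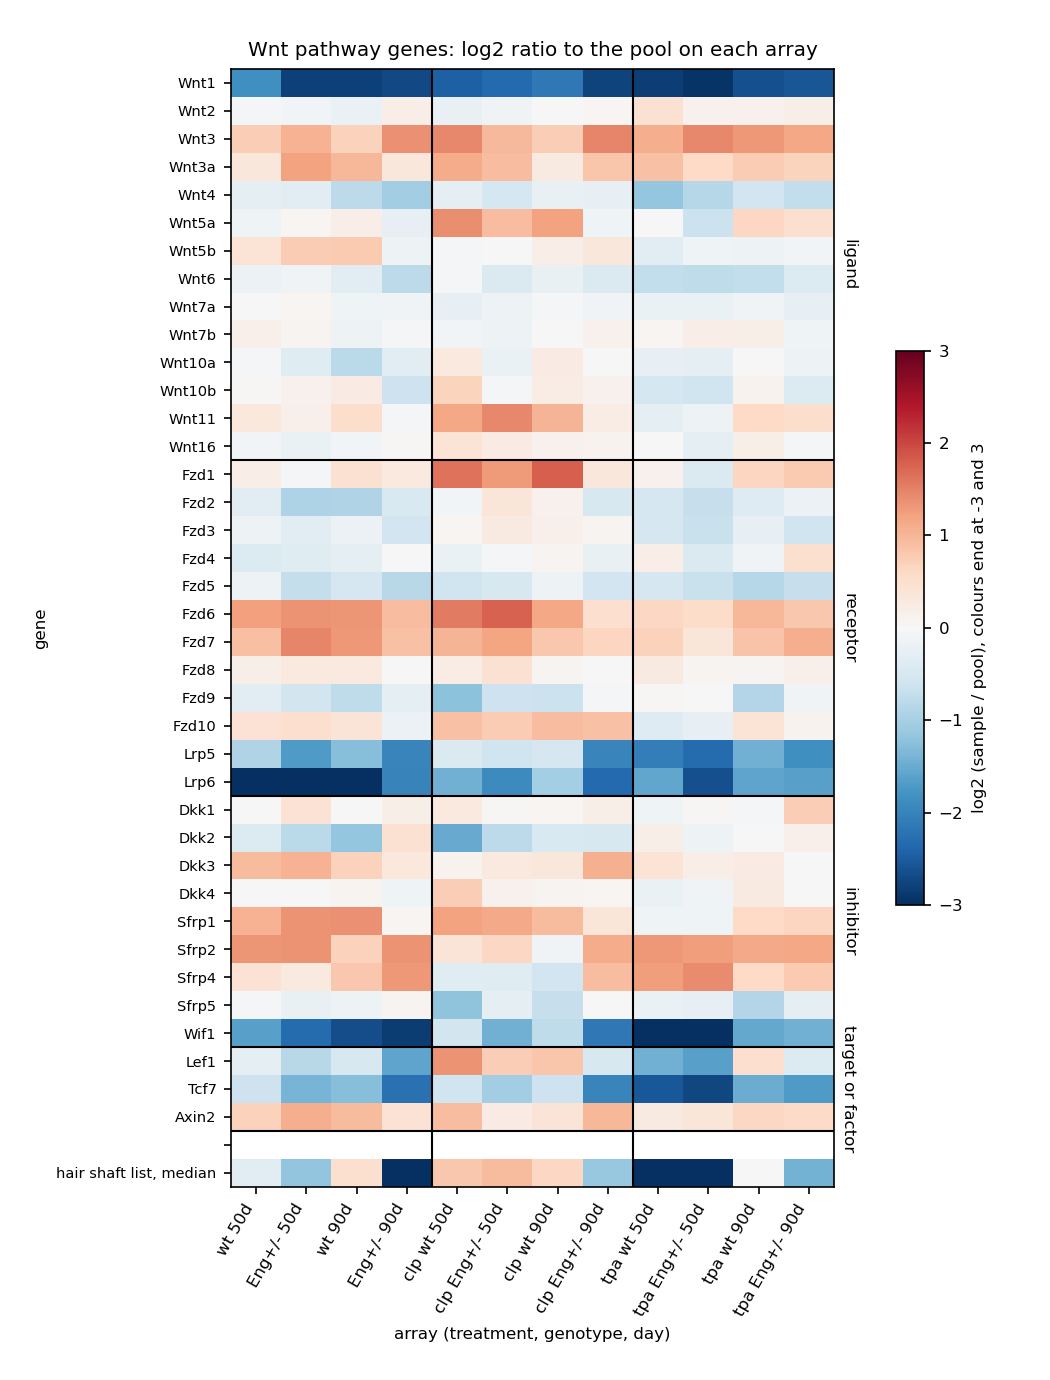
Heat map of the 38 tested members (rows, grouped by role) on the 12 arrays (columns, by treatment, day and genotype), coloured by log2 ratio of sample to pool with colours ending at -3 and 3, and the median of the hair shaft list in the last row. Wnt1 and Lrp6 are below the pool on every array, and Lef1, Tcf7 and Wif1 are darkest blue on the arrays where the hair list is lowest.

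The clp and tpa slides differed in 9 of 38 members (23.7%, where 8.17% of all features passed, 3.62% higher and 4.54% lower with clp). This comparison shares the clp arrays with the previous one. With clp, 8 members were higher: Lef1, Tcf7, Wif1, Lrp5, Wnt11 and the receptors Fzd1, Fzd3 and Fzd10. Sfrp4 alone was lower. The median over the 38 members was 0.25, against 0.05 over all features, and receptors held 4 of the calls out of 12 measured. With median centring in place of loess, Lef1 and Tcf7 still passed (limma adjusted p = 0.000245 and 0.0356), while the other 7 kept their direction and did not pass (0.118 to 0.52).

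Lef1 differed by 1.36 ± 0.19 between clp and tpa (SE, n = 4 pairs, limma adjusted p = 0.00771), higher with clp in 3 of 4 pairs. Its pair differences spread far more widely, from -0.05 to 2.8. Tcf7, a factor of the same family, read -0.60, -1.04, -0.62 and -1.97 on the clp arrays and -2.55, -2.72, -1.48 and -1.70 on the tpa arrays. Without a named treatment it read -0.61, -1.40, -1.27 and -2.23. It was below the pool throughout, and highest on wt 50 d and on the wt clp arrays. Its difference of clp from tpa was 1.06 ± 0.20 (SE, n = 4 pairs, limma adjusted p = 0.0188), also with 1 pair the other way. A second Tcf7 probe gave 0.29 ± 0.09 (limma adjusted p = 0.0829, higher in 4 of 4 pairs).

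The clp and tpa arrays did not overlap in 7 members (16.2% of all features), namely Fzd10, Fzd3, Wnt4 and Wnt5b higher with clp and Sfrp2, Dkk2 and Wnt2 lower, of which the receptors Fzd10 and Fzd3 passed. On the second Wnt4 probe the 2 groups overlapped, with a difference of 0.21 ± 0.15, higher with clp in 3 of 4 pairs (limma adjusted p = 0.434 over all probes). Fzd10 read 0.88, 0.77, 0.93 and 0.88 with clp, a narrow band above the tpa levels of -0.38, -0.24, 0.42 and 0.11 and the levels of 0.43, 0.51, 0.38 and -0.17 without a named treatment. The difference from tpa was 0.89 ± 0.16 (SE, n = 4 pairs, limma adjusted p = 0.015). Fzd3 read 0.05, 0.27, 0.15 and 0.09 with clp, -0.50, -0.66, -0.25 and -0.60 with tpa and -0.16, -0.35, -0.17 and -0.57 without a named treatment. It too was higher on each clp array than on any other array, and exceeded tpa by 0.64 ± 0.14 (SE, n = 4 pairs, limma adjusted p = 0.0251).

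The co-receptor Lrp5 varied more among the clp arrays, which read -0.44, -0.60, -0.50 and -1.99. The tpa arrays read -2.07, -2.31, -1.44 and -1.85, and those without a named treatment -0.91, -1.69, -1.28 and -1.97. The 3 clp arrays other than Eng+/- 90 d were above all the rest, and the difference from tpa was 1.03 ± 0.22 (SE, n = 4 pairs, limma adjusted p = 0.0253). Wif1 exceeded tpa by 1.09 ± 0.23, Wnt11 by 0.79 ± 0.19 and Fzd1 by 0.97 ± 0.24 (SE, n = 4 pairs, limma adjusted p = 0.0249, 0.0376 and 0.0414), each in 3 of 4 pairs. Their pair differences ran from -0.71 to 2.48, from -0.29 to 1.58 and from -0.45 to 1.7.

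Sfrp4 ran against the other members. It read -0.36, -0.36, -0.57 and 0.92 on the clp arrays, 1.26, 1.41, 0.59 and 0.78 on the tpa arrays and 0.43, 0.30, 0.80 and 1.31 without a named treatment. The 3 clp arrays other than Eng+/- 90 d were the only ones where it lay below the pool. The difference from tpa was -1.10 ± 0.25 (SE, n = 4 pairs, limma adjusted p = 0.031). Sfrp2 and Dkk2 differed by -0.70 and -0.86 without passing (limma adjusted p = 0.084 and 0.119).

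A second probe of a gene did not always agree on which genes passed. The brighter probe of Fzd5 differed by 0.10 and 0.22 in the clp comparisons with no named treatment and with tpa, whereas its other probe differed by 0.64 ± 0.10 and 0.49 ± 0.10 (SE, n = 4 pairs, limma adjusted p = 0.0196 and 0.0263 over all probes). Axin2 likewise differed from tpa by 0.18 ± 0.22 on the brighter probe and by 0.60 ± 0.13 on the other (limma adjusted p = 0.0281 over all probes). That second Axin2 probe read below the pool on all 12 arrays, -1.61 to -0.22, and the brighter one above it, 0.24 to 1.08. Wnt16 exceeded tpa by 0.27 ± 0.10 on the brighter probe and differed by -0.29 ± 0.09 on the other, lower in 4 of 4 pairs (limma adjusted p = 0.147 and 0.0824). Which probe follows the transcript better was not tested.

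In contrasts by day, added after the data were seen, 13 members passed at 50 d and Lef1 differed by 2.58. At 90 d 0 passed and Lef1 differed by 0.14, Wif1 by 0.03, Tcf7 by 0.30 and Wnt11 by 0.06. How many of all features passed in these contrasts is not reported here, so the counts are no result about the members alone. The test of whether the day difference varied with treatment gave limma adjusted p of 0.216 for Lef1, 0.22 for Wif1 and 0.236 for Tcf7, so in this fit these day-wise values were not shown to differ. With median centring in place of loess Lef1 passed this test, as did 313 of all features. The count over both days was 1 (Lef1) without clp wt 90 d, clp Eng+/- 50 d, tpa wt 90 d or tpa wt 50 d. It was 3 without tpa Eng+/- 90 d, 4 without tpa Eng+/- 50 d and 5 without clp wt 50 d. Leaving out clp Eng+/- 90 d, or any 1 array without a named treatment, gave 10 to 13. Over all features 2049 passed with all arrays, and 203 to 621 in the fits with 1 member. Features that passed numbered 544, 1314 and 1016 in the fits with 3, 4 and 5 members. They numbered 1370 to 2969 in those with 10 to 13. For this pair of slides, 7 of 22 hair shaft genes and 6 of 9 melanocyte genes passed upward, with median differences of 2.92 and 1.64. Downward, 5 of 7 immune genes, 4 of 7 fibroblast and matrix genes and 2 of 7 endothelial genes passed, with median differences of -0.90, -0.89 and -0.13. Their part in the Wnt difference was not tested.

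**Figure D3:**
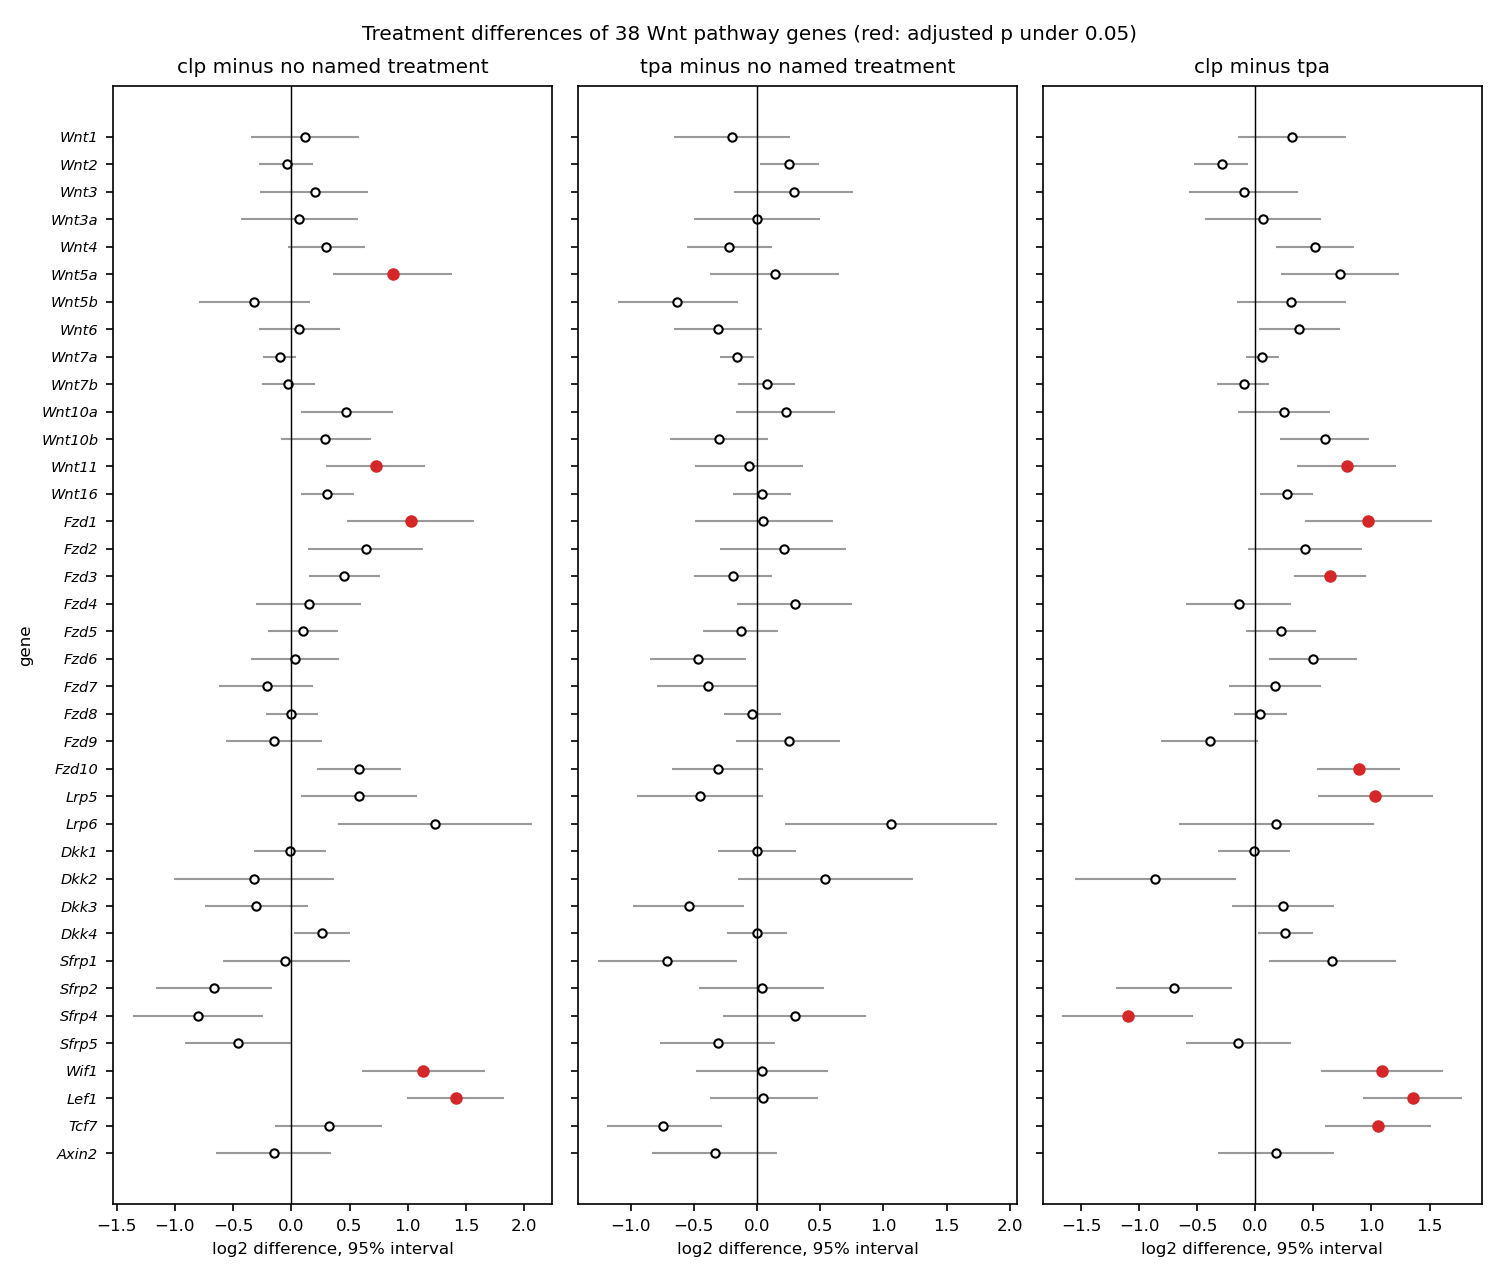
Fitted log2 differences (horizontal axes) with 95% intervals for the 38 members (rows) in the 3 treatment comparisons, red where the limma adjusted p was below 0.05. Red points number 5 for clp against no named treatment, 0 for tpa against no named treatment and 9 for clp against tpa, where Sfrp4 at -1.10 is the only red point left of 0.

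For tpa against no named treatment, 0 of 38 members passed (0.132% of all features did, 33 in number). An unadjusted limma p below 0.05 was found for 8 members and for 6519 of all 25085 features, a larger share than among the members. The control arrays are those of the clp comparison. The median over the members was -0.02, and 18 of 38 differences were positive. The 5 smallest p-values belonged to Tcf7 (-0.74 ± 0.20, limma adjusted p = 0.0916), Wnt5b, Sfrp1, Lrp6 and Fzd6. Lrp6 differed by 1.06 ± 0.37 on the brighter probe and by -0.13 ± 0.17 on the other (limma adjusted p = 0.131 and 0.634). Wnt5b read -0.34, -0.13, -0.15 and -0.09 with tpa, below the levels of 0.42, 0.76 and 0.78 on 3 of the arrays without a named treatment but on both sides of the -0.16 on Eng+/- 90 d. It read -0.03, 0.02, 0.20 and 0.35 with clp. The inhibitor Sfrp1 read -0.13, -0.14, 0.60 and 0.64 with tpa, 1.05, 1.34, 1.36 and 0.07 without a named treatment and 1.21, 1.13, 0.94 and 0.37 with clp. Here too Eng+/- 90 d stood apart from the other 3 arrays of its slide. Without that array 7 members passed (Dkk2, Dkk3, Lrp6, Sfrp1, Tcf7, Wnt2 and Wnt5b), as did 4966 of all features instead of 33. Median centring moved the median of all features to 0.34, and 83.6% of the calls were then upward instead of 21.2%.

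The order of the arrays was shared by many members and by the hair genes. The hair shaft list had its lowest medians on Eng+/- 90 d without a named treatment (-5.58), tpa wt 50 d (-4.92) and tpa Eng+/- 50 d (-4.73), and lay between -1.42 and 0.94 on the other arrays. On these same 3 arrays, 10 of 38 members had their 3 lowest levels (26.3%, beside 5.17% of all features): Wnt4, Wnt6, Wnt10b, Wnt11, Fzd10, Dkk4, Sfrp1, Wif1, Lef1 and Tcf7. So did 14 of 65 other pathway genes, among them the stem cell receptor Lgr5, the cell cycle gene Ccnd1 and the homeobox genes Msx1 and Msx2. Sfrp4 was the 1 member with its 3 highest levels there (2.63%, beside 3.31% of all features). This is a count over 12 arrays that share a pool, given as a description. It depended on the probe for Wnt4 and Tcf7, whose second probes had other arrays among their 3 lowest. Dkk4 was above background on 3 clp arrays, 1 tpa array and 0 without a named treatment, so its order rests partly on signal near background.

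**Figure D4:**
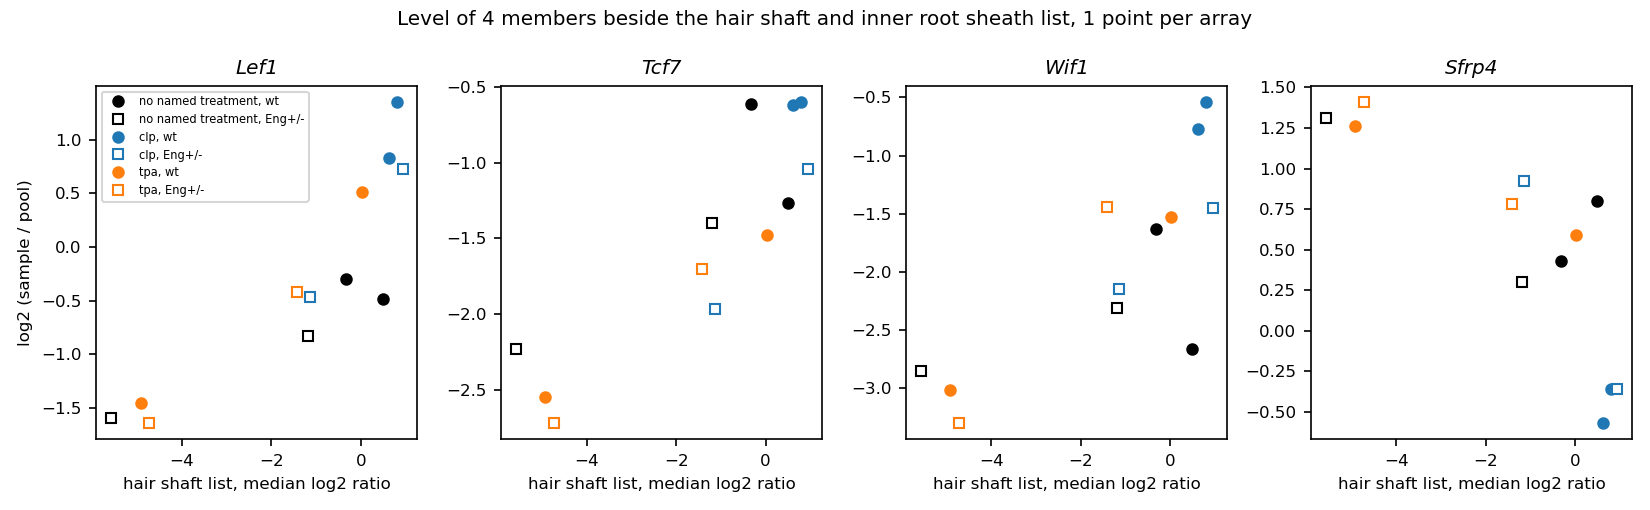
Level of Lef1, Tcf7, Wif1 and Sfrp4 (vertical axes, log2 ratio of sample to pool) against the median log2 ratio of the hair shaft list (horizontal axes), 1 point per array, filled for wt and open for Eng+/-. The 3 arrays with list medians of -5.58, -4.92 and -4.73 have Lef1 levels of -1.59, -1.45 and -1.64 and Sfrp4 levels of 1.31, 1.26 and 1.41.

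Between genotypes 0 of 38 members passed, as did 0 of 25085 features (0%). An unadjusted limma p below 0.05 was found for 9 members and for 3336 of all features. The median difference of Eng+/- from wt was -0.10, against -0.01 over all features, and 26 of 38 differences were negative. Lef1, Tcf7 and Lrp5 were lower on the Eng+/- array in 6 of 6 pairs, which 3.67% of all features were. Lef1 differed by -0.78 ± 0.15 (SE, n = 6 pairs, limma adjusted p = 0.313), from -0.19 in the tpa 50 d pair to -1.30 in the clp 90 d pair. Tcf7 differed by -0.65 ± 0.17 and Lrp5 by -0.63 ± 0.18 (SE, n = 6 pairs, limma adjusted p = 0.313 for both). This pattern depended on the probe. The second Tcf7 probe differed by -0.09 ± 0.07, lower in 5 of 6 pairs (limma adjusted p = 0.602 over all probes). The second probes of Axin2 (-0.32 ± 0.11) and Fzd5 (-0.28 ± 0.09) were lower in 6 of 6 pairs (limma adjusted p = 0.332 and 0.315). Their brighter probes were lower in 3 and 4 pairs. Wif1 was lower in 5 of 6 pairs (-0.56 ± 0.19) and so was Wnt10b, a ligand of the hair placode and matrix (-0.37 ± 0.14, limma adjusted p = 0.33 and 0.348).

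The size of the genotype difference varied from pair to pair. In the clp 90 d pair 9 members were at least 2-fold apart (6.96% of all features were): Lef1, Tcf7, Lrp5, Lrp6, Wif1, Wnt5a and Fzd1 lower on the Eng+/- array, and Sfrp2 and Sfrp4 higher. In the 90 d pair without a named treatment 4 were (9.84% of all features), with Lef1 and Sfrp1 lower and Dkk2 and Lrp6 higher. The tpa 50 d pair had 1, Lrp6 (0.439% of all features), and the 50 d pair without a named treatment, the clp 50 d pair and the tpa 90 d pair had 0 (4.55%, 1.84% and 1.48%). Single pairs have no replicate check. The second Lrp6 probe was less than 2-fold apart in all 6 pairs, with differences from -0.79 to 0.17. The hair shaft medians of the 2 arrays were 0.62 and -1.14 in the clp 90 d pair and 0.49 and -5.58 in the 90 d pair without a named treatment, with the Eng+/- array lower each time, and the part of this in the Wnt values was not tested.

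**Figure D5:**
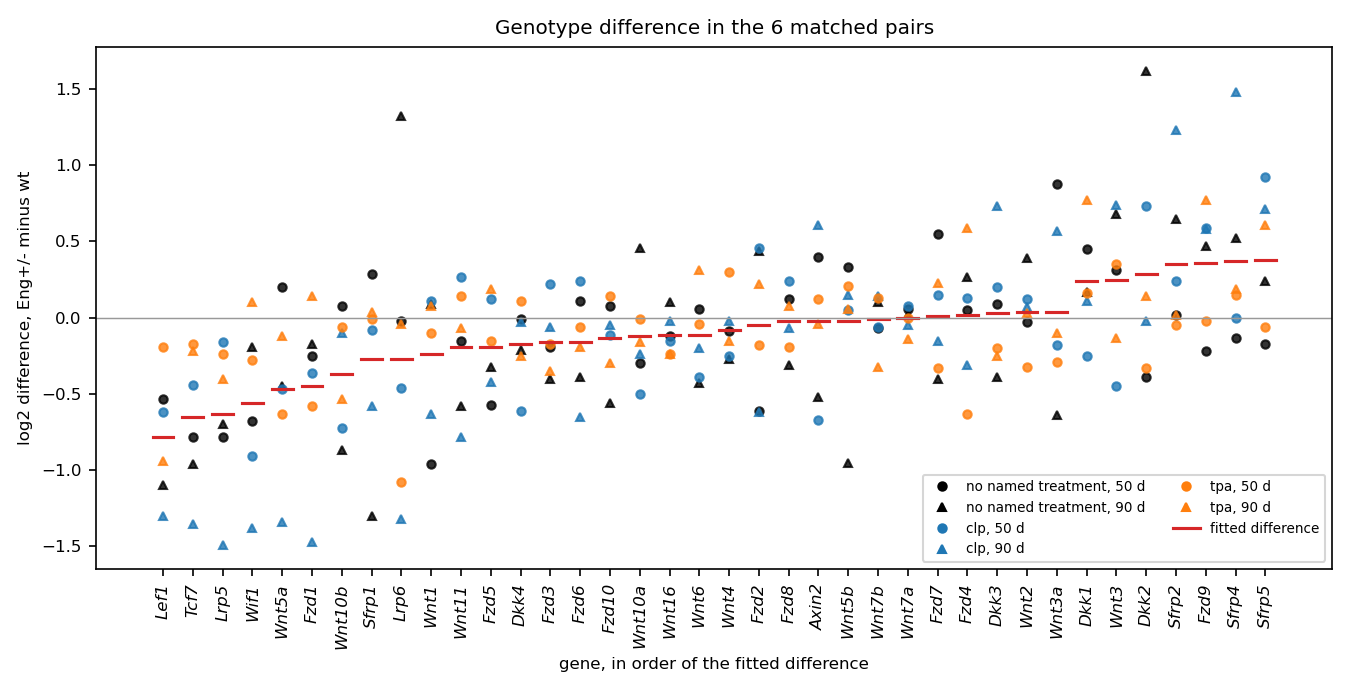
Log2 difference of Eng+/- from wt (vertical axis) in each of the 6 matched pairs for the 38 members, ordered by the fitted difference (red bars), with circles for 50 d, triangles for 90 d and colours for treatment. All 6 points of Lef1, Tcf7 and Lrp5 lie below 0, and the clp 90 d pair holds the lowest point of each, from -1.30 to -1.49.

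Whether the genotype difference varied with day was tested in a model with all pairwise interactions, and 0 of 38 members passed (0% of all features). An unadjusted limma p below 0.05 was found for 899 of all 25085 features and for 1 member. That member was Lef1, whose genotype difference was lower at 90 d by -0.67 ± 0.27 (SE, limma adjusted p = 0.984). Sfrp4 (0.72 ± 0.36), Wnt11 (-0.56 ± 0.31), Sfrp1 and Sfrp2 (0.56 ± 0.32) had the next smallest p-values.

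Between 50 d and 90 d 0 of 38 members passed at any treatment level, with 0% of all features in each. Unadjusted p-values below 0.05 numbered 3 without a named treatment, 5 with clp and 7 with tpa. Among all 25085 features they numbered 1377, 3166 and 1445. With tpa, Lef1 was 1.59 ± 0.27 higher at 90 d and Wif1 1.68 ± 0.33 (SE, n = 2 pairs, limma adjusted p = 0.351 for both), followed by Tcf7 (1.05), Wnt11 (0.78) and Wnt5a (0.88). The hair shaft list was 4.08 higher at 90 d on the same arrays, and its part was not tested. Of the 38 members, 19 had both tpa 90 d arrays above both 50 d arrays (26.2% of all features) and 5 had them below (22.7%).

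With clp the smallest p-value belonged to Fzd6, a receptor known for hair orientation. Fzd6 read 1.55, 1.78, 1.15 and 0.50 on the clp arrays, 1.24, 1.35, 1.33 and 0.93 without a named treatment and 0.62, 0.56, 0.99 and 0.80 with tpa. Both clp 90 d arrays were below both clp 50 d arrays (-0.84 ± 0.24 SE, n = 2 pairs, limma adjusted p = 0.309). Lef1 (-0.86), Wnt11 (-0.67), Dkk4 and Lrp5 (-0.72) followed. Dkk4 was above background on 3 clp arrays, 1 tpa array and 0 without a named treatment.

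Without a named treatment the ligand Wnt4 came first. Wnt4 read -0.26, -0.35, -0.78 and -1.05 on those arrays, -0.27, -0.52, -0.22 and -0.24 with clp and -1.16, -0.86, -0.57 and -0.73 with tpa. Both 90 d arrays were lower than both 50 d arrays without passing (limma adjusted p = 0.836), and the other Wnt4 probe differed by -0.17 ± 0.22. Tcf7 (-0.74), Wif1 (-0.79), Sfrp4 (0.69) and Wnt6 had the next smallest p-values.

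On the probe that stood for the gene, members other than the 10 that passed in a treatment comparison passed in none. Wnt3 (0.68 to 1.47) and Wnt3a (0.27 to 1.20), both canonical ligands, were above the pool on all 12 arrays, as were Fzd6, Fzd7 (0.36 to 1.46) and Axin2. In Cy3 the Wnt3a probe was above background on 5 arrays, so its ratios rest partly on a pool signal near background. The second probes of Fzd7 and Axin2 were below the pool on all 12 arrays. Wnt1 and Lrp6 were at least 1 unit below it on all 12 arrays, as 3.2% of all features were. Wnt7a and Wnt7b, ligands of the epidermis, varied by 0.31 and 0.36 over the arrays. Wnt2 was above background on 10 arrays, Wnt7a on 6 and Dkk1 on 3, so their ratios rest partly on signal near background. Wnt10a (-0.80 to 0.29), Fzd2 (-0.92 to 0.37), Fzd4 (-0.44 to 0.49), Fzd9 (-1.22 to 0.03) and Sfrp5 (-1.20 to 0.09) lay on both sides of the pool. Fzd8 read 0 to 0.46, and Dkk3, listed here with the inhibitors, read -0.01 to 1.07. Over all 38 members, 6 had a range of 2 units or more (Wnt5a, Fzd1, Lrp6, Wif1, Lef1 and Tcf7), as 7.46% of all features did.

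Of 71 other genes of the pathway, 65 were tested. For clp against no named treatment 4 passed (6.15%, beside 7.77% of all features). Wls, which carries Wnt proteins to the cell surface, was higher by 0.72 ± 0.14 (SE, n = 4 pairs, limma adjusted p = 0.0257), reading 1.16, 1.14, 1.02 and 0.69 with clp and 0.16 to 0.38 without. Lgr5, the R-spondin receptor of follicle stem cells, was higher by 0.76 ± 0.19 and the secreted antagonist Cer1 by 0.47 ± 0.12 (limma adjusted p = 0.0438 and 0.042). Cer1 was above background on 3 clp arrays, 1 tpa array and 1 array without a named treatment, so its differences rest partly on signal near background. Ptk7, a co-receptor of planar polarity signalling, was lower by -1.26 ± 0.29 (limma adjusted p = 0.0355), in 4 of 4 pairs. For clp against tpa 6 passed, all higher (9.23%, beside 8.17%): Lgr5 by 1.03, Celsr1 by 0.99, Prickle2 by 0.54, Msx1 by 0.52, Cer1 by 0.51 and Bcl9, a partner of beta-catenin, by 0.50. Celsr1 and Prickle2 belong to planar polarity, where 2 of 8 genes tested passed. For tpa against no named treatment, for genotype and for day, 0 of 65 passed, while 19, 14 and 4 to 7 had an unadjusted p below 0.05. Among all 25085 features such p-values numbered 6519, 3336 and 1377 to 3166.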

How the data were processed

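The deposited scanner files hold the intensity of both channels of Agilent 2-colour arrays (design 026655, Feature Extraction 10.7.3.1 and probe annotation on mm9 per the file headers; the submitters' processing notes give version 10.0). The authors' deposited values are the log10 ratio of processed Cy5 to Cy3 and equalled the ratio in the scanner files (largest difference 0).

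Median intensities were corrected with normexp (offset 50) and normalised by loess within each array in limma 3.58.1 (R 4.3.3, with version 1.17.8 of the data.table package), with control spots at weight 0. Spots of a probe were averaged. Probes marked as outliers on any array (975 of 39429) were left out, and a probe needed a Cy5 signal well above background on at least 2 of 12 arrays. Probes were named by accession through RefSeq, and the probe of highest mean intensity stood for a gene, which gave 25085 features. The model had genotype and 6 treatment-by-day conditions (5 residual degrees of freedom), with eBayes moderation that followed mean intensity and Benjamini-Hochberg adjustment over all features. The scripts were tested on simulated data.

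Members, gene lists and tests were chosen with earlier results of these data known. Named are the members that passed, the 5 smallest p-values per comparison, and of the other pathway genes at most 6 that passed; values on all arrays are given for members that passed or had 1 of the 3 smallest p-values. The ranges given for the other members were added after their values were seen. The number of arrays limits the precision. Probe sequences and gene coordinates on mm9 were not used here.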

Additional observations from a re-analysis of the deposited data

Results flagged for a closer look

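Wnt5b stood apart in a single genotype pair. In the 90 d pair without a named treatment the Eng+/- array was -0.95 below the wt array, whereas the difference in the other pairs ran from 0.05 to 0.33. The gap between this pair and the nearest of the others was 0.78 of the whole range, above Dixon's 95% limit for 6 values. Of 38 members, 1 was set apart in this way, and chance sets apart about 1 in 20.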

How the results depend on the processing

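Over 44 results and up to 22 alternative settings each, 932 values were recomputed: 789 kept direction and side of the threshold, 134 lost the call, 5 gained a call and 4 changed sign. Only results that passed could lose a call, so all 134 fell on the members that passed in the clp comparisons. Against no named treatment, Wnt5a kept its call in 7 of 22 settings, Wnt11 in 8, Fzd1 in 9, Wif1 in 13 and Lef1 in 18. Against tpa, calls were kept in 10 (Fzd1) to 21 (Lef1) of 22 settings. The count of members for clp against no named treatment (5) was 12 on Cy5 alone with quantile normalisation, 10 without background correction, 3 without the filter on dim probes, 0 without the wt 50 d and clp wt 90 d arrays, 3 at 50 d and 0 at 90 d, and 0 to 8 with single arrays left out. For clp against tpa (9) it was 5 with median centring, where 1629 of all features passed. These 5 were Lef1 and Tcf7 of the 9, with Dkk2, Dkk4 and Fzd9. The count was 1 without those 2 wt arrays, 0 at 90 d, and 1 to 13 with single arrays left out. For tpa against no named treatment (0) it was 1 on Cy5 alone (Fzd8), and 0 to 7 with single arrays left out. The count over all features in the same setting is not given for every one of these counts. Median centring gave 1 member for day in tpa (Lef1, 2.34) and 1 for day by treatment (Lef1), the latter with 0 to 1 when single arrays were left out. In that setting 245 of all features passed for day in tpa and 313 for day by treatment, instead of 0 for each with loess. Median centring also turned Fzd6 for tpa against no named treatment to 0.05, Wnt4 and Wnt6 for day without a named treatment to 0.04 each, although relative to the median of all features these were -0.29, -0.20 and -0.20. Tcf7 for tpa against no named treatment was 0.16 at 90 d alone. Lef1 lost its call in 4 of 22 settings against no named treatment (1.22 to 2.14) and in 1 of 22 against tpa (0.14 to 2.58). The cause of these changes was not tested. The 2 wt arrays were chosen from an earlier account of their Cy3 channel; here the median Cy3 correlation was 0.986 for wt 50 d and 0.993 for clp wt 90 d. Without them the genotype by day model had no residual degrees of freedom and gave no value. Slide as a block equals treatment in this design and changed no count for genotype or day. Under median centring 222 features passed for genotype, 0 of them members, and the median of all features was 0.11 for genotype, 0.24 for day without a named treatment and -0.11 for day in tpa. The labels carry no replicate numbers, so no block on them was fitted; the model's terms already compare genotypes within condition.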

Other observations

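Wnt1, a ligand better known from the nervous system, read -2.93 to -1.84 against the pool, and the co-receptor Lrp6 read -3.33 to -1.02. The labels describe the pool as made from all conditions, yet on these probes every sample read below it. By the labels every sample was in Cy5 and the pool in Cy3, so a difference from the pool and a dye difference cannot be told apart. A second Wnt1 probe read -0.33 to 0.32 and was above background on 7 arrays, and a second Lrp6 probe read -1.35 to -0.23. The probes of a gene were also on opposite sides of the pool on every array for Axin2, Wnt4 and Fzd7. The cause was not tested.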
